A study of Mus musculus with 72 samples.

Results

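Bulk RNA-Seq of the fetal testis at E18.5 was used to compare males conceived by IVF (n = 6) with naturally conceived males, called naturals (n = 4). These 10 libraries are all those labelled as E18.5 testis among the 72 libraries of the series. Membership was set by the labels, while the comparison itself was chosen with earlier results of these data known. Both groups had CF-1 mothers and SJL/B6 fathers of a stock with a GFP transgene. Naturals came from a natural estrous cycle and mating and were never transferred. IVF fetuses came from superovulated CF-1 females, were fertilized and cultured to the blastocyst stage in vitro, and were transferred to pseudopregnant recipients, so that superovulation, culture and transfer cannot be told apart here. Each library is the testis RNA of 1 male fetus. The labels do not tie fetuses to litters, so that p-values measure the spread between these fetuses. The comparison asks how IVF conception is associated with gene expression in the testis just before birth.

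The testis at this age holds cords of Sertoli cells, which secrete anti-Müllerian hormone, around prospermatogonia, the fetal germ cells that have stopped dividing and are regaining DNA methylation. Fetal Leydig cells between the cords make androgens from cholesterol. Peritubular myoid cells, fibroblast-like interstitial cells, vessels and macrophages make up the rest. In a bulk sample, fewer cells of a type and less RNA per cell cannot be told apart.

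Sertoli, Leydig and germ cell markers were present in every library. Amh was at 818 CPM (counts scaled to the library total, not to transcript length) or more, Star at 161.5 or more and Ddx4, a germ cell helicase, at 56.1 or more. Ddx3y, on the Y chromosome, was at 107 to 194 CPM and Xist at 1.43 to 5.74 CPM, as in male tissue. The spermatid genes Prm1, Prm2, Tnp1, Tnp2, Acrv1 and Odf1 were at 2.05 CPM or less. Of the erythroid markers, Hba-a1, Hba-a2, Hbb-bs and Hbb-bt were listed at 0 in all 10 libraries, although Alas2, the erythroid heme enzyme, was at 19.5 to 43.9 CPM.

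Depth separated the groups. Naturals had 2904727 to 4869139 total counts and IVF libraries 8500054 to 15745480, a difference of 1.49 in mean log2 total (exact permutation test, two-sided, p = 0.00476, which is the lowest p possible with 4 and 6 libraries). The groups also differed in how expression followed the GC content of the transcript. For each library, the log2 CPM relative to each gene's mean was regressed on GC content, and the slope is given per 10 percentage points of GC. The slopes of naturals were 0.038, 0.105, 0.069 and 0.159, and those of IVF libraries ran from -0.087 to -0.034, so that no library overlapped the other group (difference -0.154, exact permutation test, p = 0.00476). The slope on transcript length, per doubling, was 0.017, -0.040, -0.039 and -0.081 in naturals and 0.016 to 0.029 in IVF libraries (difference 0.0595, exact permutation test, p = 0.00952), with natural 1 among the IVF values. These 3 values adjusted together were 0.00714, 0.00714 and 0.00952. Depth, GC trend and conception cannot be told apart in these libraries.

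**Figure D1:**
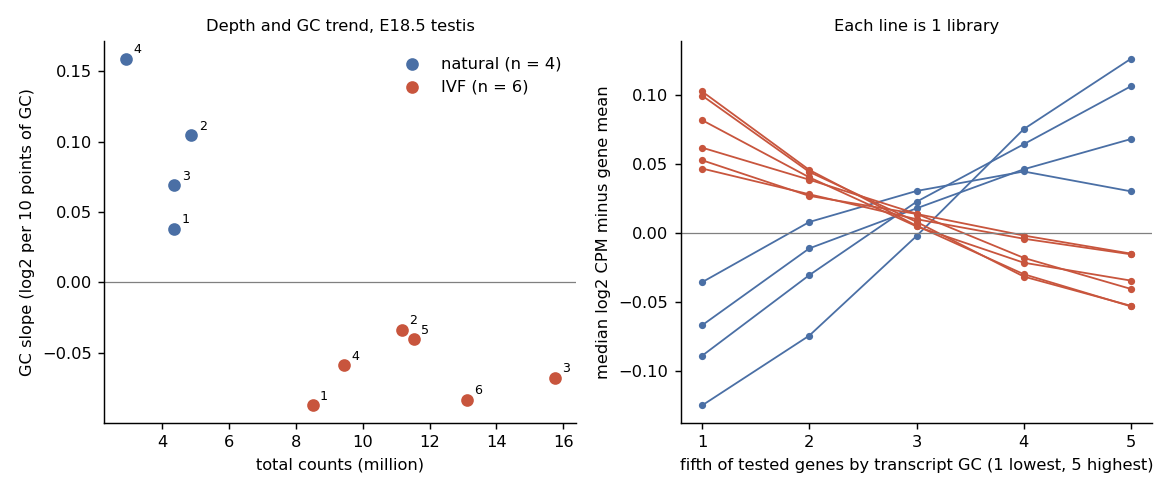
Left, the GC slope of each library (log2 per 10 points of GC) against its total counts, with the replicate number beside each point. Right, the median log2 CPM relative to the gene mean in 5 equal bins of the tested genes by transcript GC, 1 line per library (blue natural, red IVF). All 4 naturals have slopes of 0.038 or more and all 6 IVF libraries -0.034 or less, and the lines cross in the middle bin.

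Natural 1 and IVF 2 stood apart in markers of other tissues. Natural 1 held transcripts known from liver at a sum of 801 CPM, against 29.7 to 64.5 CPM in the other 9, with Alb at 372, Ahsg at 108 and Afp at 97.8 CPM. IVF 2 held markers of the mesonephric duct and rete testis, which adjoin the gonad, at a sum of 89.1 CPM against 20.2 to 29.7 CPM in the others. There, Cdh16 was at 24.0 CPM against at most 3.33 and Lhx1 at 11.5 CPM against at most 3.90. The part of these transcripts in the differences below was not tested, and the calls lost without natural 1 or without IVF 2 are given with the downregulated DEGs and the lists.

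In the IVF group compared with naturals, 34 of 15406 genes tested were differentially expressed genes, or DEGs (0.221%). A DEG had to pass an adjusted p of 0.05 in the edgeR quasi-likelihood test and to differ by over 1.5-fold. Of these, 21 were upregulated (0.136%) and 13 were downregulated (0.0844%). At any fold, 181 genes passed (1.17%), 126 upregulated (0.818%) and 55 downregulated (0.357%). Their changes were small, with a median size of 0.43 on the log2 scale, and 0.25 to 2.57 in all. Libraries of the groups did not overlap for 31 of the 34 DEGs and 173 of the 181, against 938 of all genes tested (6.09%; 3.51% with every IVF library above and 2.58% with every IVF library below). The called genes were chosen by p in these same libraries. Their lack of overlap, here and below, follows in part from this choice, and nothing is read from it. An unadjusted p under 0.05 was seen for 2722 genes (17.7%), 1406 higher (9.13%) and 1316 lower (8.54%) in IVF. The count of DEGs depended on single libraries. It was 60, 115, 56 and 3 without naturals 1 to 4 and 7, 17, 6, 7, 18 and 5 without IVF 1 to 6, and the 3 DEGs left without natural 4 were Zbed6, Nbeal1 and Cpeb4.

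The upregulated DEGs had AT-rich, long transcripts. The median GC content was 41.0% for 20 upregulated DEGs with a matched transcript, 54.5% for the 13 downregulated DEGs and 50.4% for all genes tested. The median lengths were 6216, 2348 and 3055 bases. Sequences of 60 coding bases show this contrast for the 3 DEGs of smallest p in each direction, each at the place in the coding sequence where the GC share is closest to that of the whole transcript (GENCODE M21, GRCm38, written 5′ to 3′ on the strand of the gene, G and C in capitals). The upregulated genes were Zbed6, in exon 1 at chr1:133659532-133659591 on the minus strand, Nbeal1, in exon 4 at chr1:60195096-60195155 on the plus strand, and Cpeb4, in exon 1 at chr11:31872483-31872542 on the plus strand.
Zbed6: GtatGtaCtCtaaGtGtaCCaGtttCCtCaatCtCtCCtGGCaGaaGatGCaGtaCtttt
Nbeal1: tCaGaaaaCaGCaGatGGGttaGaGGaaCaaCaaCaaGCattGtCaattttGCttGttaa
Cpeb4: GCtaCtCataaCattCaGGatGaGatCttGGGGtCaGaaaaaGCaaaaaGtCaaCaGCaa
The downregulated genes were Zfp385a, in exon 2 at chr15:103333089-103333148 on the minus strand, Ak4, in exon 4 at chr4:101460506-101460565 on the plus strand, and Supt7l, in exon 2 at chr5:31522995-31523054 on the minus strand.
Zfp385a: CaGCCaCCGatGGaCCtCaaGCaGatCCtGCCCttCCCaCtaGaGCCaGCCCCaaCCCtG
Ak4: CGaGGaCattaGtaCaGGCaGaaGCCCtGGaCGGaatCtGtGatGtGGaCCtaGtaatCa
Supt7l: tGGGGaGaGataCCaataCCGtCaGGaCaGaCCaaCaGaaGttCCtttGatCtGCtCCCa
The GC shares of these windows were 41.7%, 36.7% and 40.0% for the upregulated genes and 63.3%, 50% and 50% for the downregulated genes. Over the whole transcript Ak4 and Supt7l were at 49.5% and 50%, close to the median of all genes.

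The gene of smallest p was Zbed6, a BED-domain transcription factor known as a repressor of Igf2. It was at 134, 183, 175 and 127 CPM in naturals and from 258 to 304 CPM, with a median of 278, in IVF testes. All 6 IVF libraries lay above all naturals, and the difference was 0.85 ± 0.10 (log2, SE, n = 4 and 6; edgeR quasi-likelihood test, adjusted p = 0.00377). Zbed6 was also the only gene to pass with the GC trend removed from each library (0.71 ± 0.10, adjusted p = 0.0357). Zbed6 lies without introns at chr1:133655879-133660885, inside Zc3h11a on the same strand, and 100% of its 50-base words are also found in a GENCODE read-through transcript of this locus, so that reads of the host transcript cannot be told apart from its own. Zc3h11a was at 294 to 378 CPM in naturals and 372 to 428 CPM in IVF testes (0.29, adjusted p = 0.0685). Igf2 was at 1239, 404, 1230 and 1284 CPM in naturals and 618 to 756 CPM in IVF testes, and natural 2 alone lay below every IVF library (-0.58, adjusted p = 0.311).

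Nbeal1, a large BEACH-domain protein of membrane traffic, was at 41.9, 38.6, 34.0 and 24.3 CPM in naturals and 58.1 to 73.7 CPM, median 61.9, in IVF testes (0.86 ± 0.12, adjusted p = 0.0108). Cpeb4, which binds cytoplasmic polyadenylation elements in mRNA, was at 37.6, 37.8, 40.8 and 45.0 CPM against 54.7 to 68.9 CPM, median 62.6 (0.63 ± 0.09, adjusted p = 0.0108). The groups overlapped in neither gene. Zbed6, Nbeal1 and Cpeb4 passed at an adjusted p under 0.05 in all 10 fits that left out 1 library, and the downregulated Zfp385a in 9. With the GC trend removed, the adjusted p of Nbeal1 was 0.0645 and that of Cpeb4 0.118.

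Of the 21 upregulated DEGs, 4 held the linker motif of tandem C2H2 zinc fingers in their coding sequence. Zfp970, Gm14403, Zfp160 and Zfp945 encode tandem C2H2 fingers, the DNA-binding repeats of a family that includes many repressors of transposable elements. Adjacent fingers are joined by a conserved short linker. One repeat of each gene is shown from its first match to the C2H2 linker motif, searched on the coding strand with wobble positions free, in lower case with the linkers in capitals (GENCODE M21, GRCm38). The stretches lie in the last exon of each gene, at chr2:177475010-177475107 on the plus strand for Zfp970, chr2:177508722-177508819 on the plus strand for Gm14403, chr17:21025862-21025959 on the plus strand for Zfp160 and chr17:22851458-22851555 on the minus strand for Zfp945.
Zfp970: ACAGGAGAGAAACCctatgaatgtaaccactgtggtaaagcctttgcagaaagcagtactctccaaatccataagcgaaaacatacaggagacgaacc
Gm14403: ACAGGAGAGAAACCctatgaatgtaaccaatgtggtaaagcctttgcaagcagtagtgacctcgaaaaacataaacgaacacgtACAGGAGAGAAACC
Zfp160: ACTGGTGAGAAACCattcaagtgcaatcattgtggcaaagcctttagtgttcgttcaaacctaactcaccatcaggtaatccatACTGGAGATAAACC
Zfp945: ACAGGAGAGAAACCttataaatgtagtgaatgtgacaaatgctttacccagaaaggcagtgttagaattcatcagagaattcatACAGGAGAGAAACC
The linker motif stood 13, 8, 13 and 4 times in the coding sequences of Zfp970, Gm14403, Zfp160 and Zfp945. Of the DEGs with a coding sequence, 4 of 19 upregulated (21.1%) and 0 of 13 downregulated held it. At an adjusted p under 0.05 and any fold, 7 of 124 upregulated (5.65%) and 1 of 54 downregulated genes (1.85%) did. Over all genes tested with a coding sequence, the motif was present in 432 of 14657 (2.95%). Nothing is read from counts this small. Among the 432 genes with the motif, 290 were higher in IVF and 142 lower, with a median difference of 0.12 on the log2 scale, which was 0.05 with the GC trend removed. The second linker position of the Zfp970 stretch departs from the motif and is left in lower case.

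Zfp970 was at 16.41, 22.98, 27.95 and 18.98 CPM in naturals and 31.6 to 47.1 CPM in IVF testes (0.80 ± 0.16, adjusted p = 0.0332). The nearby Gm14403 was at 9.99, 10.9, 20.7 and 23.6 CPM against 28.4 to 40.5 CPM (1.04 ± 0.21, adjusted p = 0.0372). Of their 50-base words, 52.2% and 37.7% are shared with transcripts of other genes, so that these counts are uncertain. Zfp160 was at 28.1 to 41.2 CPM against 50.7 to 68.1 CPM (0.66 ± 0.12, adjusted p = 0.0293) and Zfp945 at 32.8 to 58.8 CPM against 64.5 to 79.9 CPM (0.60 ± 0.13, adjusted p = 0.0384). No library overlapped between groups in these 4 genes. With the GC trend removed they were at 0.63, 0.88, 0.43 and 0.33 on the log2 scale, with adjusted p of 0.129, 0.140, 0.179 and 0.302.

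Among all 377 symbols starting with Zfp and tested, 7 were upregulated (Zfp160, Zfp945, Zfp970, Zfp26, Zfp318, Zfp871 and Zfp971) and 1 was downregulated (Zfp385a) at an adjusted p under 0.05, where 0.818% and 0.357% of all genes tested were. Zfp971 passed neither without natural 1 nor without IVF 2 (adjusted p = 0.0537 for each), and Zfp318 did not pass without IVF 2 (adjusted p = 0.0537). Of these 377 genes, 261 were higher in IVF, against 49.3% of all genes tested, with a median of 0.13 against -0.0042 for all genes. Their summed level was 15278 to 15877 CPM in naturals and 16614 to 17203 CPM in IVF testes, without overlap. Their median GC content was 45.0%, below that of all genes, and with the GC trend removed their median was 0.05 and 224 of 377 were higher. Zfp871 was at 203 to 241 CPM in naturals and 289 to 342 CPM in IVF testes (0.48 ± 0.07, adjusted p = 0.0108). Zbtb37, of the BTB zinc-finger class, was at 21.2, 27.7, 24.3 and 12.6 CPM against 36.1 to 44.6 CPM (0.82 ± 0.16, adjusted p = 0.0293).

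The other upregulated DEGs were of various kinds and are not grouped by a list. Asxl3, a Polycomb-associated factor, was at 16.9 to 26.2 CPM in naturals and 28.5 to 41.5 CPM in IVF testes (0.71, adjusted p = 0.0347). Mysm1, a histone H2A deubiquitinase, was at 42.3 to 84.7 CPM against 97.2 to 105 CPM (0.65, adjusted p = 0.0401). Mcm9, a helicase of recombination repair that germ cells need, was at 14.98 to 23.4 CPM against 28.1 to 33.1 CPM (0.63, adjusted p = 0.0389). The groups did not overlap in any of these genes. Mysm1 was at 0.49 without natural 1, under the 1.5-fold limit, with an adjusted p of 0.0214.

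Abca13, of the ABC family of lipid transporters, was at 8.32, 5.54, 3.38 and 3.33 CPM in naturals and 10.4 to 18.03 CPM in IVF testes (1.30 ± 0.26, adjusted p = 0.0347). Abca5, of the same family, was at 28.6 to 47.6 CPM against 48.6 to 65.5 CPM (0.60 ± 0.13, adjusted p = 0.0401). Tfrc, the transferrin receptor that brings iron into cells, was at 60.9, 55.6, 60.6 and 63.6 CPM against 69.0 to 127 CPM (0.68 ± 0.14, adjusted p = 0.0401). The naturals were tightly grouped for Tfrc while the IVF testes were spread widely. Svep1, a large extracellular matrix protein, was at 74.4 to 120 CPM against 123 to 179 CPM (0.70 ± 0.13, adjusted p = 0.0317). Svep1 was the upregulated DEG of highest transcript GC (52.0%), and its difference was 0.74 with the GC trend removed, though the adjusted p was then 0.0645.

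Far1os had the largest fold of the upregulated DEGs. This noncoding RNA lies at chr7:113530489-113564987 on the minus strand, opposite to Far1, which makes the fatty alcohols of ether lipids. Far1os was at 0.476, 1.44, 0.902 and 0.333 CPM in naturals, some of them a few counts, and 2.66 to 4.72 CPM in IVF testes (2.05 ± 0.43, adjusted p = 0.0372). Far1 was at 118 to 150 CPM in naturals and 157 to 200 CPM in IVF testes (0.39, adjusted p = 0.0401). The strand setting of the counting is not given in the sources used here, so that reads of the pair could be mixed. The last upregulated DEGs were Yod1, a deubiquitinase, at 0.72, Cdc37l1, an Hsp90 co-chaperone, at 0.63, Dpy19l4 at 0.60 and Gm3414 at 0.66. Yod1 was the most even among naturals, at 11.2, 11.7, 11.7 and 11.3 CPM, against 16.3 to 20.7 CPM in IVF testes.

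**Figure D2:**
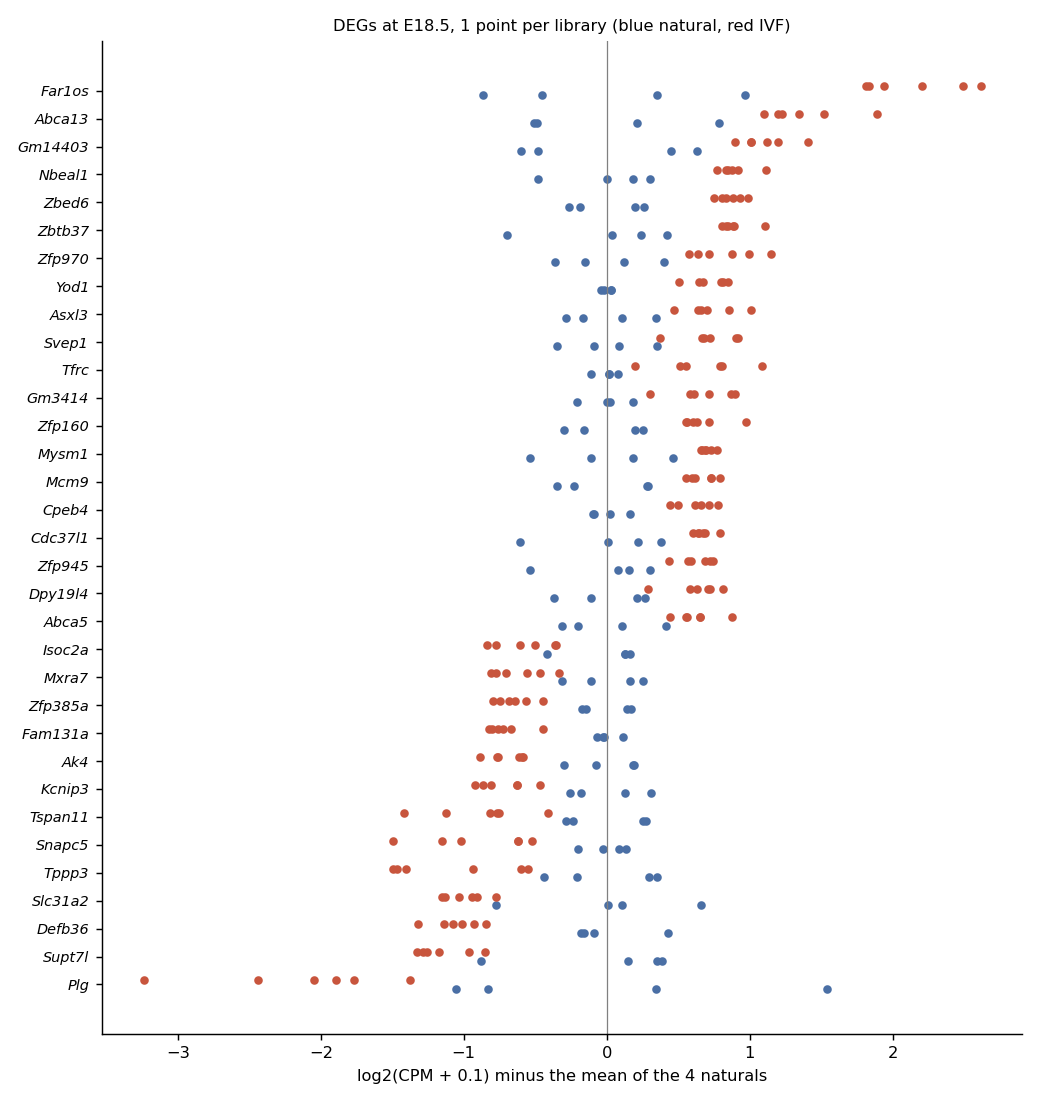
DEGs at E18.5 (33 of the 34), 1 row per gene and 1 point per library, as log2(CPM + 0.1) minus the mean of the 4 naturals (blue natural, red IVF). Groups are apart in all rows but Isoc2a, Slc31a2 and Supt7l, where 1 natural lies among or beside the IVF libraries.

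The 13 downregulated DEGs were of varied function. Which direction held more DEGs depended on the fit, with 57 upregulated and 78 downregulated by the DESeq2 Wald test and 48 and 67 by edgeR without natural 2. Plg, the plasminogen gene expressed mainly in liver, had the largest difference (-2.57 ± 0.53, adjusted p = 0.0372). Plg was at 8.56, 3.69, 1.58 and 1.33 CPM in naturals and 0.216 to 1.05 CPM in IVF testes, and its order among naturals was that of their Alb levels, 372, 10.7, 3.38 and 0.666 CPM. Without natural 1 the difference was -1.81 and the adjusted p 0.0821. Of the liver list, which was chosen after these values were seen, 6 of 11 genes were tested, all 6 were lower in IVF and the median of -2.31 became -0.37 without natural 1.

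Supt7l, a subunit of the SAGA coactivator, was at 42.6, 18.05, 37.0 and 43.6 CPM in naturals and 13.3 to 18.49 CPM, median 14.3, in IVF testes (-1.20 ± 0.20, adjusted p = 0.0264). Natural 2 lay within the range of the IVF libraries, while the other 3 naturals lay well above them. The difference was -1.20 with the GC trend removed too (adjusted p = 0.0545). Slc31a2, a copper transporter-like protein, was at 17.4, 10.05, 27.3 and 18.6 CPM against 7.73 to 10.1 CPM (-1.07 ± 0.21, adjusted p = 0.0347), again with natural 2 lowest. Snapc5, a subunit of the complex that starts snRNA transcription, was at 14.8 to 18.6 CPM against 5.95 to 11.8 CPM (-0.87 ± 0.20, adjusted p = 0.0450), and was at -0.98 with the GC trend removed. At 44.1% GC, Snapc5 was the downregulated DEG of lowest GC content.

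Ak4, a mitochondrial adenylate kinase induced by hypoxia, was at 48.0, 34.3, 39.9 and 47.9 CPM in naturals and 22.7 to 28.1 CPM in IVF testes (-0.71 ± 0.12, adjusted p = 0.0202). Zfp385a, a zinc-finger protein that interacts with p53, was at 79.3 to 100.5 CPM against 51.4 to 65.7 CPM (-0.65 ± 0.09, adjusted p = 0.0108). With the GC trend removed, Ak4 was at -0.72 and Zfp385a at -0.50, both with an adjusted p of 0.0545. Both stayed under 0.05 when the trend with transcript length was removed instead, as did Zbed6. Of the 50-base words of the Ak4 transcript, 11.3% are shared with other transcripts, chiefly the pseudogene Ak3l2-ps.

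Of the other downregulated DEGs, Defb36, a β-defensin, was at 14.3, 9.44, 9.92 and 9.32 CPM against 4.17 to 5.84 CPM (-1.09 ± 0.20, adjusted p = 0.0285). Tppp3, which promotes tubulin assembly, was at 17.3 to 30.0 CPM against 8.25 to 16.0 CPM (-1.07 ± 0.23, adjusted p = 0.0387). Tspan11, a tetraspanin, was at 25.2 to 37.2 CPM against 11.4 to 23.1 CPM (-0.87), and Kcnip3, a calcium sensor, at 18.3 to 27.1 CPM against 11.5 to 15.8 CPM (-0.74). No library overlapped in these genes. Fam131a (-0.70) and Mxra7 (-0.61) were also apart, while Isoc2a (-0.59, adjusted p = 0.0479) overlapped in natural 4, at 25.6 CPM. Without natural 1, an adjusted p of 0.0590 was found for Tppp3 and for Isoc2a, 0.0621 for Dpy19l4, 0.0658 for Tfrc and, as above, 0.0821 for Plg. The other 29 DEGs passed that threshold, 23 of them at over 1.5-fold. Among those under that fold without natural 1 were Cdc37l1 at 0.46, Zfp945 at 0.45, Mcm9 at 0.52, Zfp160 at 0.56 and, as above, Mysm1. The number of the 34 that remained DEGs was 27, 21 and 3 without naturals 2 to 4, and 6, 6, 6, 15 and 5 without IVF 1, 3, 4, 5 and 6. Of the 10 fits that left out 1 library, Isoc2a passed 0.05 in 0 and Tppp3, Tfrc and Abca5 in 1 each. Genes not listed as lost here can thus be lost in other fits. Without IVF 2, 17 of the 34 remained DEGs. The adjusted p passed 0.05 by little for the 16 lost on it, which were Gm14403 (0.0510, the lowest), Isoc2a (0.0737, the highest), Abca5, Asxl3, Cdc37l1, Fam131a, Gm3414, Kcnip3, Mcm9, Mxra7, Mysm1, Plg, Slc31a2, Snapc5, Tfrc and Tppp3.

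Abundant genes moved by less. The 5 upregulated genes of highest CPM outside the lists, not scaled by length, were Cbx5, the HP1α heterochromatin protein, Prrc2c, Purb, Sf3b1, a core splicing factor, and Vcan, a matrix proteoglycan. Vcan was at 272 to 391 CPM in naturals and 414 to 602 CPM in IVF testes (0.54 ± 0.11, adjusted p = 0.0372), and Prrc2c at 456 to 592 CPM against 689 to 752 CPM (0.44 ± 0.07, adjusted p = 0.0202). The downregulated genes of highest CPM were Ptms, Tuba1b, an α-tubulin, Thra, the thyroid hormone receptor α, Sin3b, a corepressor, and Chchd10, a mitochondrial protein. Chchd10 was at 170 to 243 CPM against 107 to 158 CPM (-0.53 ± 0.11, adjusted p = 0.0372). Thra was at 235 to 298 CPM against 158 to 220 CPM (-0.41 ± 0.09, adjusted p = 0.0451). The groups did not overlap in these 10 genes, and with the GC trend removed none of them passed. Without natural 1, Vcan (adjusted p = 0.0527) and Thra (0.0602) did not pass, and without IVF 2 neither did these nor Cbx5, Sf3b1, Sin3b and Tuba1b, with an adjusted p of 0.0514 (Vcan) to 0.0655 (Cbx5). Some other fits kept fewer calls, with 8 of the 181 genes kept without natural 4 and 8 without IVF 6.

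Sertoli cell markers were mostly lower in IVF testes, but 1 of 12 passed, where 0.357% of all genes tested were downregulated. Ptgds, which makes prostaglandin D2, was at 261, 240, 166 and 218 CPM in naturals and 144 to 174 CPM in IVF testes (-0.48 ± 0.10, adjusted p = 0.0372), and its adjusted p was 0.0567 without IVF 2. Amh was at 1663, 1292, 1148 and 1317 CPM against 818 to 1124 CPM, without overlap (-0.44 ± 0.11, adjusted p = 0.0610). Dhh, the hedgehog ligand of Sertoli cells, was at 174 to 279 CPM against 120 to 220 CPM (-0.34, adjusted p = 0.298), and Sox9, the factor that directs Sertoli fate, at 212 to 306 CPM against 178 to 257 CPM (-0.19, adjusted p = 0.427). In all, 11 of 12 were lower in IVF against 50.7% of all genes tested, with a median of -0.33, or -0.27 with the GC trend removed. Without natural 1 the median was -0.15 with 11 of 12 lower, and without natural 1 and IVF 2 it was -0.08. Natural 1 had the highest summed level of the list, 4802 CPM, and IVF 2 the lowest, 2326 CPM, against 2911 to 3959 CPM in the other 8.

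Some Leydig cell and steroidogenic genes, such as Cyp17a1 and Star, varied widely within both groups. Cyp17a1, the enzyme that leads to androgens, was at 257, 491, 1105 and 1486 CPM in naturals and at 597 to 2211 CPM, median 1215, in IVF testes (0.70 ± 0.59, adjusted p = 0.588). Star, which brings cholesterol into mitochondria, was at 161, 196, 372 and 546 CPM against 267 to 769 CPM (0.70 ± 0.43, adjusted p = 0.437). Insl3, the hormone of testicular descent, was at 50.5 to 96.2 CPM against 45.8 to 85.5 CPM (-0.20, adjusted p = 0.648). Naturals 1 and 2 were lowest for Star and Cyp17a1, and the IVF libraries themselves spanned over 2-fold in both. Fdxr had the smallest p of the list and varied less, at 213 to 267 CPM in naturals and 166 to 234 CPM in IVF testes (-0.25, adjusted p = 0.190). None of the 14 genes passed in either direction, 9 were higher and 5 lower, and the median was 0.15.

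No germ cell gene passed the test. Ddx4 was at 56.1 to 81.9 CPM in naturals and 59.3 to 96.0 CPM in IVF testes, and Dazl, an RNA-binding protein of germ cells, at 148 to 216 CPM against 150 to 279 CPM. Of 13 prospermatogonia markers 11 were tested, 4 higher and 7 lower (median -0.26). Nanos2 and Nanos3 were at 1.01 CPM or less in all libraries. The lowest p of this list was that of Pou5f1, the pluripotency factor, at -0.53 (adjusted p = 0.177). IVF 1 was highest in this list, with a sum of 612 CPM against 351 to 496 CPM in the others. Of 21 genes of the piRNA pathway and of DNA methylation, none passed (median 0.01). Among them Tet2, which oxidizes methylcytosine, was at 59.2, 97.9, 94.4 and 73.2 CPM in naturals and 102 to 122 CPM in IVF testes, without overlap (0.44 ± 0.12, adjusted p = 0.0685). Dnmt3a (0.10), Dnmt3l (-0.03) and Piwil2 (-0.01) were close to 0.

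**Figure D3:**
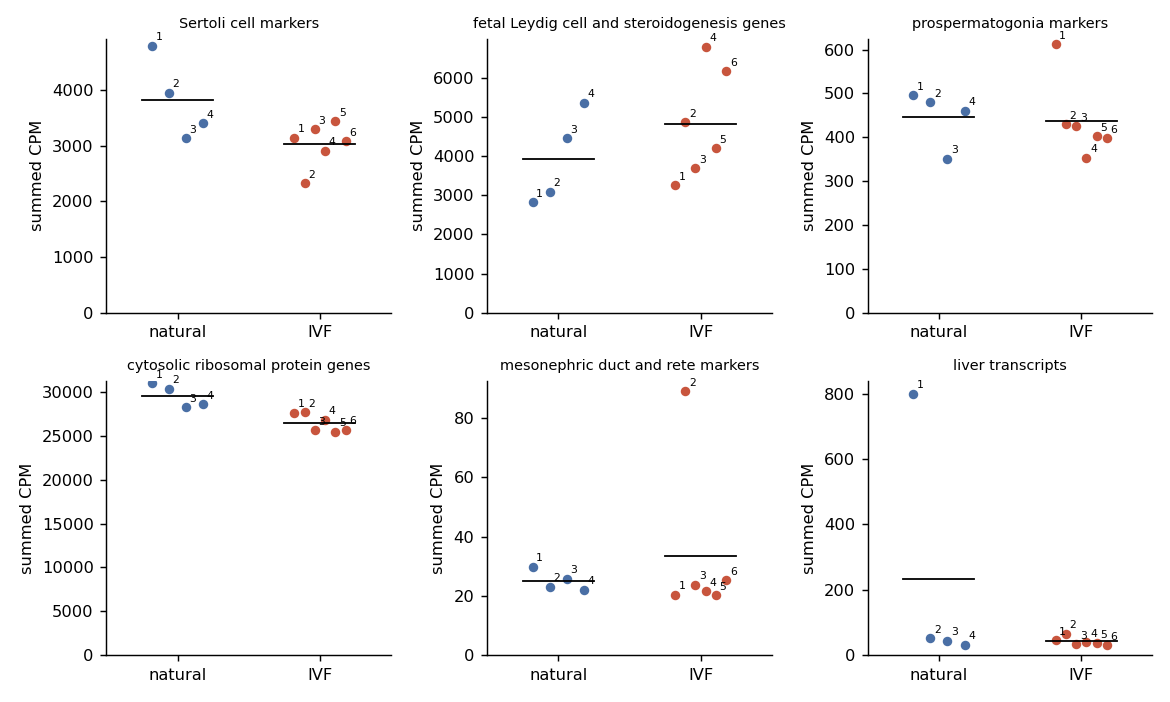
Summed CPM of 6 gene lists in each library, with replicate numbers beside the points and the group mean as a line. Leydig genes spread widely in both groups, ribosomal protein genes are apart (28264 to 30991 CPM in naturals, 25479 to 27695 CPM in IVF), natural 1 stands out in liver transcripts and IVF 2 in mesonephric markers.

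None of the peritubular and interstitial (13), endothelial (8) or macrophage (9) markers passed. Their medians were 0.00, -0.12 and -0.29, and 7 of 9 macrophage markers were lower in IVF, against 50.7% of all genes tested. No gene passed among the 6 adrenal, 6 ovarian somatic, 4 mesonephric, 4 meiotic and spermatid and 2 erythroid markers that could be tested. Among the signals between these cells, none of 18 ligands and none of 23 receptors passed (medians -0.22 and 0.09). Inhba, the activin βA subunit, was at 716, 181, 576 and 611 CPM in naturals and 145 to 334 CPM in IVF testes (-1.06 ± 0.37, adjusted p = 0.188), and natural 2 lay among the IVF libraries, as it did for Supt7l. Bmp4 was at 10.3 to 16.2 CPM against 6.79 to 11.0 CPM (-0.65 ± 0.18, adjusted p = 0.0720). Amhr2, the receptor of AMH, was at 81.9 to 134 CPM against 49.9 to 88.6 CPM (-0.51, adjusted p = 0.127). Bmpr2, a BMP receptor, was at 0.33 (adjusted p = 0.0904). None of 8 hedgehog and Notch target genes passed.

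Cytosolic ribosomal protein genes were mostly lower in IVF testes by small amounts. Of 74 tested, 2 were downregulated, Rpl31 at 143 to 162 CPM in naturals and 115 to 128 CPM in IVF testes (-0.31 ± 0.06, adjusted p = 0.0372) and Rpl23 at 483 to 525 CPM against 387 to 439 CPM (-0.26 ± 0.06, adjusted p = 0.0459). Without IVF 2 their adjusted p was 0.0536 and 0.0595. None was upregulated and 69 were lower. Of all genes tested, 0.357% were downregulated at an adjusted p under 0.05 and 50.7% were lower. An unadjusted p under 0.05 with a lower level in IVF was seen for 42 of the 74 (8.54% of all genes tested). The median was -0.16 and -0.13 with the GC trend removed, while with the length trend removed it was -0.03. Their counts can be shared with processed pseudogenes and are uncertain.

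Energy metabolism gave a similar picture of small differences. For the counts below, 0.357% of all genes tested were downregulated at an adjusted p under 0.05, 50.7% were lower and 49.3% higher. Nothing is read from a single call in a list. Of 21 glycolysis genes, Slc2a1, the glucose transporter GLUT1, was downregulated, at 95.6, 66.9, 68.3 and 67.9 CPM in naturals and 49.4 to 61.5 CPM in IVF testes (-0.47 ± 0.11, adjusted p = 0.0451). Natural 1 was far above the other naturals, and without it Slc2a1 did not pass (-0.32, adjusted p = 0.0599), nor did it without IVF 2 (-0.46, adjusted p = 0.0693). In the list 20 genes were lower and the median was -0.16, but natural 1 had the highest sum (5168 CPM against 3153 to 3994 CPM in the others) and without it the median was -0.08, with 15 lower. Of 15 hypoxia response genes, Ak4 was the only one to pass, and 11 were lower (median -0.15; -0.03 without natural 1). Ddit4, an inhibitor of mTORC1 signaling, was at 176 to 283 CPM against 103 to 170 CPM (-0.57, adjusted p = 0.0685), and Egln3, an oxygen sensor, at 18.48 to 24.6 CPM against 12.7 to 17.1 CPM (-0.52, adjusted p = 0.0610), both without overlap. Of 22 cholesterol synthesis genes none passed, and 19 were higher (median 0.18).

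Imprinted genes showed single naturals far from the rest, and none of 26 tested passed. Meg3, the maternally expressed noncoding RNA, was at 113 CPM in natural 1 and at 1131 to 1185 CPM in the other naturals, against 1042 to 1208 CPM in IVF testes. Meg3 was singled out after its values were seen. Igf2 in natural 2 was described above. H19, which shares its control region with Igf2, was at 1570 to 2170 CPM in naturals and 1218 to 1733 CPM in IVF testes (-0.25, adjusted p = 0.218). Peg3, at 443 to 599 CPM against 572 to 681 CPM (0.32, adjusted p = 0.0628), and Zim1, at 67.8 to 87.9 CPM against 85.2 to 99.3 CPM (0.33, adjusted p = 0.0623), were the imprinted genes of lowest p. Over the 26, 12 were higher and 14 lower (median -0.02). None of the 15 cell cycle genes and none of the 10 immediate-early genes passed.

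Of 293 Slc transporter symbols tested, Slc25a36 (0.45) and Slc4a7 (0.46) were upregulated and Slc31a2, Slc2a1 and Slc30a2 (-0.40) were downregulated, with 146 higher and 147 lower. At an adjusted p under 0.05, 0.818% of all genes tested were upregulated and 0.357% downregulated, and nothing is read from counts this small. Slc30a2, a zinc transporter, was at 50.9 to 60.3 CPM in naturals and 38.1 to 48.9 CPM in IVF testes, without overlap. Of 43 Abc symbols, Abca5 and Abca13 were the 2 that passed, and of 79 Atp symbols Atp13a3, a polyamine transporter, did (0.38, adjusted p = 0.0372), but without IVF 2 neither Atp13a3 (adjusted p = 0.0548) nor Slc30a2 (adjusted p = 0.0764) passed. Defb36 was 1 of 3 tested Defb symbols.

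The calls followed GC content through the whole transcriptome. Tested genes were divided into 5 equal bins by the GC content of their transcript, from 31.2% to 78.9%. The median log2 difference fell from 0.15 in the lowest bin through 0.06, -0.01 and -0.08 to -0.12 in the highest. Of the upregulated genes at an adjusted p under 0.05, 101 were in the lowest bin, 15 and 9 in the next and 0 in the upper 2 bins. The downregulated genes had the opposite order, with 1, 2, 9, 16 and 27. Across 15306 genes, which are not independent replicates, Spearman's rho was -0.38 between GC content and the log2 difference and 0.29 between length and the difference.

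With the GC trend removed from each library, 1 gene passed at an adjusted p under 0.05 (0.00649% of 15406), Zbed6. All 34 DEGs kept their sign, 21 remained over 1.5-fold and the median size was 0.63 in place of 0.71. Their unadjusted p stayed under 0.05 in all 34, and 1984 of all genes tested had such a p, compared with 2722 before. The adjusted p of the 34 ran from 0.0357 to 0.302, with a median of 0.128. This removal also takes away any true difference that follows GC content, since conception and the GC trend go together here.

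Next, the E18.5 DEGs were followed in adult F1 testes, from other animals, at 12 weeks (5 naturals and 5 IVF) and 39 weeks (4 and 6). The ages were counted on different annotations. A contrast within an age takes this out only where a gene is counted alike in both groups. At 12 weeks, 26 of the 33 DEGs given a value had the opposite sign and 7 the same, and at 39 weeks 12 of 32 had the opposite sign and 20 the same. Plg is included in error, as opposite at 12 weeks and as the same at 39 weeks. With 0 to 6 counts per library at 12 weeks and 0 to 8 at 39 weeks, Plg was not tested on its own at these ages. The adult values given to Plg are not its own. The share of opposite signs over all genes was not computed, so that nothing is read from these counts. Some of the DEGs were low in adult testis, such as Tspan11 at 0.241 to 1.16 CPM at 12 weeks. The difference between E18.5 and 12 weeks passed for 27 of the 34 DEGs in the age by conception interaction (edgeR, adjusted p under 0.05), against 834 of 18064 genes (4.62%). The 34 were chosen by their E18.5 difference, which is itself a part of this contrast. A higher share than that of all genes follows in part from this choice, and nothing is read from it. At 12 weeks the mean GC slopes lay in the opposite direction, without passing 0.05 (difference 0.0667, exact permutation test, p = 0.0556). The groups overlapped there, with -0.084 to -0.001 in naturals and -0.050 to 0.072 in IVF testes. At 39 weeks the GC slopes differed in the same direction as at E18.5 (-0.222, exact permutation test, p = 0.00476). With the GC trend removed, the interaction passed for 17 of the 34 and 352 genes in all. Against 39 weeks the edgeR interaction passed for none of the 34 and 0 of 17640 genes, by TMM or by DESeq2 size factors, with an unadjusted p under 0.05 for 2281 genes. In that fit the median of all genes was shifted by 0.18.

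Zbed6 had the largest difference between E18.5 and 12 weeks by its p. It was at -0.96 ± 0.19 at 12 weeks (adjusted p = 0.0304) and -0.18 ± 0.69 at 39 weeks (adjusted p = 0.956), and the E18.5 value exceeded the 12-week value by 1.81 ± 0.22 (adjusted p = 0.000138), or by 1.58 with the GC trend removed (adjusted p = 0.000350). Nbeal1 was at -0.63 ± 0.13 at 12 weeks (adjusted p = 0.0243) and 0.20 ± 0.44 at 39 weeks, with a difference from 12 weeks of 1.49 ± 0.18 (adjusted p = 0.000138). These 2 were the only E18.5 DEGs that passed on their own at 12 weeks, and none did at 39 weeks. Ak4 was at 0.18 at 12 weeks and 0.37 at 39 weeks, neither passing, and its E18.5 value differed from the 12-week value by -0.89 ± 0.19 (adjusted p = 0.00790). Supt7l was at 0.22 and 0.08 at the later ages, and its difference from 12 weeks was -1.42 ± 0.26 (adjusted p = 0.00291). Far1os was at 0.04 at 12 weeks and 1.10 ± 0.28 at 39 weeks (adjusted p = 0.221).

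**Figure D4:**
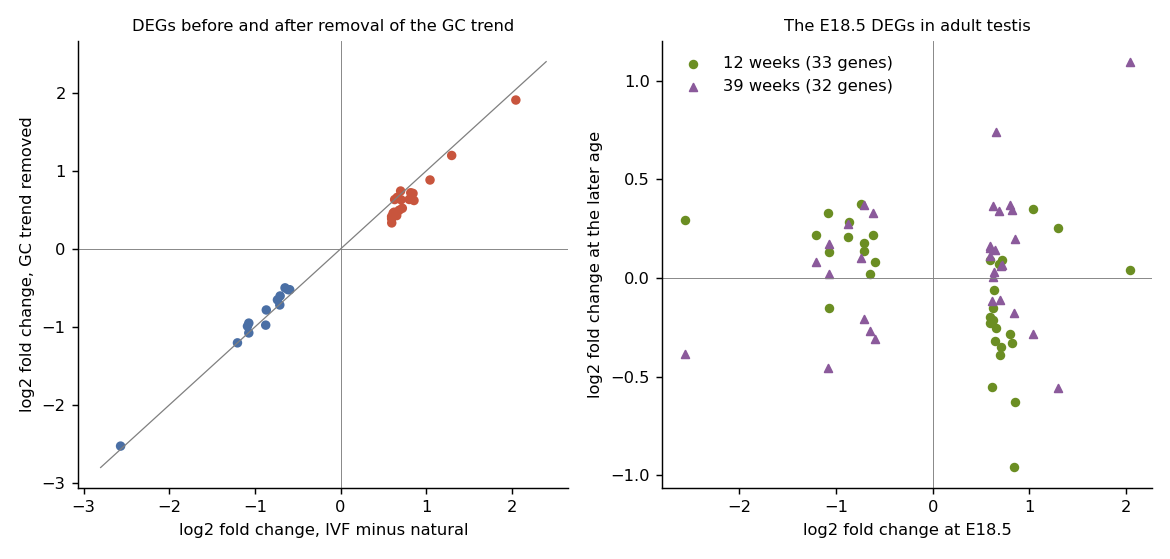
Left, the log2 fold change (IVF minus natural) of each of the 34 DEGs before and after removal of the GC trend, with the line of equality. Right, the same E18.5 values against the log2 fold change at 12 weeks (circles, 33 genes) and 39 weeks (triangles, 32 genes): 26 and 12 genes, respectively, have the opposite sign. The points of Plg are included in error, as Plg was not tested on its own at the adult ages. The share of opposite signs over all genes was not computed.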

How the data were processed

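Testis RNA of 10 F1 fetuses at E18.5 (4 natural, 6 IVF) was compared, with F1 testes at 12 and 39 weeks used beside it. The authors made stranded mRNA libraries and deposited counts of reads on each gene symbol, whole numbers without normalization. The submitters' processing notes name Trimmomatic 0.32, STAR 2.3.0e, featureCounts 1.5.0, DESeq2 and mm10. Even numbers made up 67.2% to 75.1% of low counts in naturals and 59.0% to 62.0% in IVF libraries, without overlap, so that a gene's counts may be fewer independent fragments, such as when mates of a pair are each counted, which was not tested. The floor covers counting error alone, and a count of 0 allows 0.191 to 1.03 CPM (3 counts). The SE values come from the edgeR fit and include the spread between fetuses. The extraction kit differs between the labels and the paper's methods. The methods give 5 individuals for each group and the labels 4 and 6.

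Each age was fitted on its own with the robust quasi-likelihood test of edgeR 4.0.16 (R 4.3.3), after filterByExpr and TMM normalization. Benjamini-Hochberg adjustment ran over all genes tested. DEGs were genes that passed 0.05 after adjustment and differed by over 1.5-fold (0.585 on the log2 scale). CPM values used the TMM-scaled library sizes, and the log2 CPM behind the GC and length trends a prior count of 2. The table held 25239 symbols, 22126 with a count in a library. GC content and length are those of the longest GENCODE M21 transcript (GRCm38) linked to RefSeq, in place of the RefSeq transcript planned, with 15306 of 15406 tested genes matched. The GC trend was removed by a lowess curve (span 0.3) for each library, used as an offset. Ages were compared in 1 fit of both tables by an interaction. When a library was left out of this fit, the TMM factors of the others were kept, because the reference library changed otherwise. Same-numbered naturals and IVF libraries did not deviate together (r of -0.048 to 0.018), so that numbers do not pair samples. No 2 libraries agreed within sampling noise.

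The libraries of this comparison and the gene lists were chosen with earlier results of these data known. The liver list was chosen after values were seen, as was a list of multiciliated cell markers (2 of 6 tested, none passed). Genes named are every DEG, members of each list that passed or had the 3 smallest p, its first 2 members, the 5 highest-CPM genes for each direction outside the lists, and sex check genes. Named outside this rule, after their values were seen, were Cyp17a1, Insl3, Dnmt3a, Dnmt3l, Meg3, Far1, Zc3h11a, the liver genes, Cdh16, and the globin, spermatid and Nanos genes used to check the tissue. The test was tested on simulated data: at E18.5, with 15230 genes, it recovered 43.3% of 1.5-fold, 98.5% of 2-fold and 100% of 4-fold changes, with 9 false calls. These changes were put into well-counted genes only, with the same dispersion for all genes and without a GC trend. A change was recovered if its adjusted p and sign were right, without the fold limit. The shares do not hold for DEGs of low counts or for libraries with a GC trend. Alternatives were DESeq2 size factors, the DESeq2 1.42.0 Wald test, an unfiltered table, a minimum of 10 counts per library, counts thinned (5 draws) or halved, the GC or length trend removed, 1 surrogate variable (sva 3.50.0), the replicate number as a block, each library left out, and a 2-fold limit. Leaving out natural 1 and IVF 2 together was added after the data were seen. Certain genes are counted but not reported here by name.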

Additional observations from a re-analysis of the deposited data

Results flagged for a closer look

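In 29 of 354 groups of values, 1 library lay farther from its group than Dixon's 95% critical value allows, and chance alone gives about 1 in 20. In natural 1 these values were Defb36 at 14.3, Meg3 at 113, Slc2a1 at 95.6 and Slc4a1 at 15.2 CPM. In natural 2 these values were C1qc at 8.62 and Igf2 at 404 CPM. In natural 3 these values were Morc1 at 9.47 CPM. In natural 4 these values were Fos at 2.66 and Isoc2a at 25.6 CPM. In IVF 1 these values were Dazl at 279.5 and Ddx4 at 96 CPM. In IVF 2 these values were Atf3 at 3.55, Cdh5 at 206, Emx2 at 27.9, Foxl2 at 11, Gli3 at 115, Hsd17b1 at 102, Lhx1 at 11.5, Pax2 at 8.34, Pax8 at 9.94 and Zfp160 at 68.1 CPM. In IVF 3 these values were Zbtb37 at 44.6 CPM. In IVF 5 these values were Fam131a at 11.4 and Nr4a1 at 76.1 CPM. Among the summed levels, the library apart was IVF 1 for prospermatogonia markers at 612 CPM, IVF 2 for mesonephric duct and rete markers at 89.1 CPM, natural 4 for ovarian somatic cell markers at 92.2 CPM, IVF 2 for paracrine ligands and hormones at 4947 CPM and natural 1 for liver transcripts at 801 CPM. Meg3 and the liver list were added after the data were seen. No cause was tested for these values.

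For 27 E18.5 DEGs the IVF minus natural difference was not the same at E18.5 and 12 weeks by the edgeR interaction (adjusted p under 0.05). Values are given for 26 of them. The E18.5 value minus the 12-week value, on the log2 scale, was positive for Gm3414 (2.82), Far1os (2.00), Zbed6 (1.81), Nbeal1 (1.49), Zbtb37 (1.16), Svep1 (1.08), Asxl3 (1.06), Mysm1 (0.97), Zfp160 (0.91), Cpeb4 (0.84), Abca5 (0.83), Dpy19l4 (0.80), Cdc37l1 (0.78), Mcm9 (0.69), Yod1 (0.63) and Tfrc (0.62). It was negative for Supt7l (-1.42), Defb36 (-1.41), Tppp3 (-1.20), Kcnip3 (-1.11), Snapc5 (-1.08), Slc31a2 (-0.91), Ak4 (-0.89), Fam131a (-0.84), Mxra7 (-0.83) and Zfp385a (-0.66). Gm3414 rests on 0 to 17 counts in each 12-week library. With the GC trend removed the interaction passed for 17 of the 34 DEGs. The DEGs were chosen by their E18.5 difference, which is a part of this contrast, so that the choice favors large values. Age, library depth, GC trend and annotation cannot be told apart in this comparison.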

How the results depend on the processing

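None of the 148 genes chosen by the naming rule reversed direction where it passed the test, under any setting. Of the 3081 values over these genes and settings, 76 had the other sign and did not pass. Genes named outside the rule, such as Far1, Zc3h11a and Cyp17a1, were not part of this check. The GC and length trends kept their direction and passed with each library left out, with at least 10 counts in every library, with both trends in 1 regression and with thinned counts, and the depth difference with each library left out. The counts of calls did not. The number of DEGs was 34, and 181 genes passed at any fold. These became 135 (57 upregulated, 78 downregulated) and 894 with the DESeq2 Wald test, 83 and 572 with 1 surrogate variable, 1 and 1 with the GC trend removed, 3 and 3 with the length trend removed, and 54 and 366 without natural 1 and IVF 2, a setting added after the data were seen. At any fold, 311 genes passed with no filter, 308 with at least 10 counts in every library and 93.4 (mean of draws) with counts thinned to the smallest library, and 8 DEGs differed over 2-fold. The 2 DEGs that the DESeq2 test gave no adjusted p for were Plg and Far1os. Leaving out 1 library gave 3 (natural 4) to 115 (natural 2) DEGs and 8 (natural 4, IVF 6) to 379 (natural 1) genes at any fold. Upregulated genes were 126 of the 181 calls at any fold, and 57.8% of calls with the DESeq2 Wald test, 77.8% with no filter, 74.5% with 1 surrogate variable, 100% with the GC trend removed and 33.3% with the length trend removed.

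With the replicate number as a block, 2 DEGs and 2 genes at any fold passed (Zbed6 and Osr1), although same-numbered libraries did not deviate together and the labels give no pairing. The interaction between E18.5 and 12 weeks passed for 834 genes, 352 with the GC trend removed, 208 with the replicate block and 616 to 882 with 1 library left out. Against 39 weeks it passed for 0 genes, with 0 to 5 when 1 library was left out (5 without natural 2, 1 without IVF 4). The causes of these shifts were not tested. On simulated data of 4 against 6 libraries, 43.3% of 1.5-fold changes were found in well-counted genes without a GC trend. Many changes of this size can thus be missed.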
